A study of Mus musculus with 4 samples.

Results

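Matrix metalloproteinases and the proteins that hold them in check were followed in mouse cardiomyocytes with and without overexpression of RBFOX2, an RNA-binding protein that steers alternative splicing. The set was chosen by gene name, with earlier results of these data known, and comprised 10 of the 48316 gene names in the authors' table. These were the tissue inhibitors Timp2, Timp3 and Timp4, the metalloproteinases Mmp2, Mmp3, Mmp14 and Mmp15, and the related proteases Adam10, Adam17 and Adamts1. Messenger RNA was sequenced from 4 libraries of cardiomyocytes released from the heart by Langendorff perfusion, an enzyme perfusion through the coronary vessels. The MHC control group (2 libraries) carried the genotype labelled MHC and the Rbfox2 OE group (2 libraries) the genotype labelled RbFox2. Both groups were of strain C57BL x FVB and both received doxycycline in the diet for 3 days, so the control shares the drug. The labels give neither the promoter behind these genotypes nor the age, sex or number of the animals, nor whether the libraries of a group came from separate animals.

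For each gene the table held a single pooled FPKM per group (fragments per kilobase of transcript, corrected for library size) with bounds on either side. Values of single libraries were not part of it, so neither a replicate spread nor a test between the groups was possible, and sequencing depth was unknown. Each gene is described below by its level in both groups, by the authors' bounds, given in brackets and of unstated confidence level, and by the log2 ratio (Rbfox2 OE over control) after adding 1 FPKM to each value. A gene was counted as past 2-fold where this log2 ratio was 1 or more above or below 0. Genes whose bounds did not overlap between the groups were counted as a second measure. Rbfox2 itself measured 14.7 FPKM in MHC control and 293 FPKM in the other group, so the overexpressed gene was high in the group labelled for it.

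These proteases are zinc-dependent enzymes that cut proteins outside the cell or at its surface. Secreted MMPs such as Mmp2 and Mmp3 are made as inactive precursors and cut collagens and other matrix proteins once activated, and Mmp14 and Mmp15 do so from the plasma membrane. The TIMPs bind the active site and block it. Adam10 and Adam17 are membrane proteases that shed the outer parts of receptors, adhesion molecules and growth factors, and Adamts1 is a secreted protease that cuts large proteoglycans. In the heart the balance between MMPs and TIMPs is known for its part in turnover of the matrix during remodelling, and much of the matrix there is made by fibroblasts.

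Promoters were available for 9 of the 10 genes in RefSeq (GRCm38.p6), the exception being Mmp2. Those of the metalloproteinases Mmp3, Mmp14 and Mmp15 are shown, which differed between the groups by separate bounds as deposited, in both directions. Timp3 also had separate bounds and a promoter there, which is not shown. The GC box is shared by Mmp14 and Mmp15, while Mmp3 has none and holds the AP-1 and TATA matches. Each line runs 5′ to 3′ on the plus strand and ends before the first base that RefSeq or GENCODE M21 annotates as transcribed. The positions are chr9:7445572-7445821 for Mmp3, chr14:54431348-54431597 for Mmp14 and chr8:95352046-95352267 for Mmp15. Capitals mark matches on either strand to 4 motifs: AP-1 (TGANTCA), the TATA box (TATAAA), the GC box (GGGCGG) and the CCAAT box (CCAAT).
Mmp3: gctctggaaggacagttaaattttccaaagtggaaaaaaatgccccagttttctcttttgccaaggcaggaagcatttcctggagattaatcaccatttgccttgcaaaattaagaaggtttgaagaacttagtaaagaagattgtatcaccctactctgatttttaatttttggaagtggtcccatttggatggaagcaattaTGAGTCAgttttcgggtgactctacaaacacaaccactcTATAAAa
Mmp14: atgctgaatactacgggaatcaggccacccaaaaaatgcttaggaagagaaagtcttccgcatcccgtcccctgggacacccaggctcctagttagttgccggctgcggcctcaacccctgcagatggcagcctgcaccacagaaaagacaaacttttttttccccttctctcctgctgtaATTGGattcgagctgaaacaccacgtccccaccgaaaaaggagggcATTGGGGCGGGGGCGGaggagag
Mmp15: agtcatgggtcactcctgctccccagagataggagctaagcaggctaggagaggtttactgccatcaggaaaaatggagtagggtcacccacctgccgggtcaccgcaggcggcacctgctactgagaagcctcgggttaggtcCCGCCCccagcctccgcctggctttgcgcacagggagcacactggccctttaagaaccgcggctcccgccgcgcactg
In the Mmp3 stretch the AP-1 match began 46 bases and the TATA match 7 bases before the RefSeq start. In Mmp14 the GC boxes began 19 and 13 bases before the start, the nearer CCAAT match began 23 bases before it and shares its last base with the first GC box, and the other CCAAT match began at 69 bases. In Mmp15 the single GC box began 106 bases before the start. Over the 300-base RefSeq windows, which run from 250 bases before the start to 50 after it, an AP-1 match was found in Mmp3 and in none of the other 8 genes, against 7.81% of all 32851 windows. A TATA match was found in Mmp3 and Adamts1, against 13.6% of all windows. GC boxes were found in 7 of the 9 windows, against 35.7%, and CCAAT boxes in 3 of 9, against 37.4%. The Mmp3 window held 1 CG dinucleotide and that of Timp4 held 2, while the other 7 held 10 to 32, with a median of 7 over all windows. A match is a description of the letters and not evidence of a bound factor.

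Of the 10 genes, 9 averaged 1 FPKM or more across both groups and were compared with all 11697 genes that passed the same minimum. Each of the 9 was above 1 FPKM in both groups. Mmp3 did not pass and is described by its values. Timp3 and Mmp14 were past 2-fold, 2 of 9, where 17.0% of all genes compared were past 2-fold, 815 higher and 1172 lower. Both were higher in Rbfox2 OE with separate bounds as well, against 5.27% of all genes. None of the 9 was past 2-fold lower with separate bounds, against 7.42%. The bounds were separate for 3 genes higher in Rbfox2 OE (Timp3, Mmp2 and Mmp14), against 6.67% of all genes, and for 1 gene lower (Mmp15), against 9.33%. The median log2 ratio of the 9 genes was 0.63, beside -0.06 over all genes compared, with 7 genes above 0 and 2 below. Markers of other cells differed in the same comparison, with a median log2 ratio of 1.08 for fibroblasts, 0.73 for endothelium and 1.60 for macrophages and leukocytes, and -0.74 for cardiomyocytes. Their part in the values of the proteases and inhibitors was not tested, and in bulk samples fewer cells of a type and less RNA per cell cannot be told apart.

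**Figure D1:**
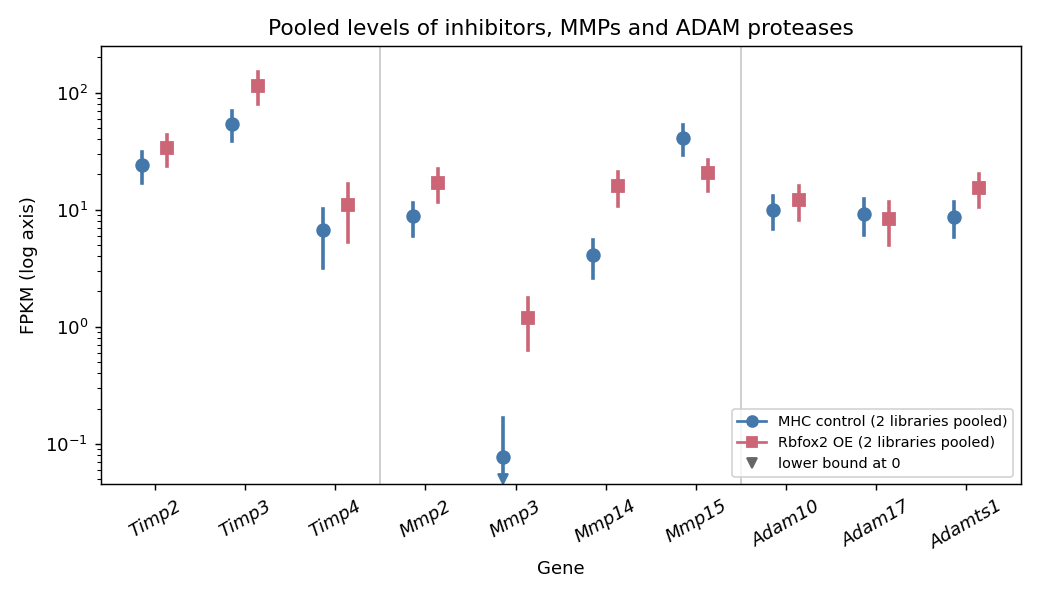
Level of each gene in FPKM on a log axis, as 1 pooled value per group (circles, MHC control; squares, Rbfox2 OE) with vertical lines for the authors' bounds. Mmp14 stands at 4.06 and 15.9 FPKM, Mmp15 at 41.3 and 20.4 FPKM, and the lines of Adam10 and Adam17 overlap between the groups.

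Summed by family, the inhibitors were the most abundant part of the set, mostly through Timp3, while Timp4 was at rank 8 in both groups. Timp3, an inhibitor that stays bound to the matrix and also blocks Adam17 and several ADAMTS proteases, stood at 54.1 FPKM in the control (38.3 to 69.9) and at 114 FPKM in Rbfox2 OE (79.2 to 149). Its log2 ratio was 1.06, the bounds were 9.30 FPKM apart, and the nearest and farthest pairs of bounds gave log2 ratios of 0.18 and 1.93. It had the highest level of the 10 genes in both groups, and in the control it lay above 88.9% of the genes compared. Timp3 (ENSMUSG00000020044.13) lies on chromosome 10, 86300372 to 86349506, on the plus strand (this and the positions that follow are of whole protein-coding genes in GENCODE M21 on GRCm38).

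Timp2, which inhibits Mmp2 and also helps Mmp14 to activate its precursor, stood at 24.1 FPKM in the control (16.8 to 31.3) and at 33.3 FPKM in Rbfox2 OE (23.4 to 43.3). The bounds overlapped between 23.4 and 31.3 FPKM and the log2 ratio was 0.45. Timp4, the TIMP best known for its expression in the heart, stood at 6.67 FPKM (3.16 to 10.2) and 10.9 FPKM (5.33 to 16.4), a log2 ratio of 0.63 with overlapping bounds. All 3 inhibitors thus had higher pooled values in Rbfox2 OE, and for Timp3 alone of these did the bounds part. Timp2 (ENSMUSG00000017466.9) lies on chromosome 11, 118301069 to 118355740, and Timp4 (ENSMUSG00000030317.8) on chromosome 6, 115241892 to 115252205, both on the minus strand.

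Timp3 and Timp4 are nested inside synapsin genes on the opposite strand, and fragments from overlapping genes may be shared between them where strand is not used. Timp3 lies within Syn3 and Timp4 within Syn2, and in each pair annotated exons overlap. The synapsins, proteins of nerve terminals, were low: Syn3 stood at 0.232 and 0.305 FPKM, Syn2 at 0.812 and 0.964 FPKM, in the control and Rbfox2 OE in turn. Timp2 encloses Cep295nl, which the authors list as BC100451, at 0 in the control and at 0.955 FPKM in Rbfox2 OE. All of these neighbours were below the TIMP they overlap in both groups.

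Timp1, the inducible inhibitor and the remaining gene of the family, was not in the chosen set and has the largest ratio of the 4 TIMPs. It stood at 3.49 FPKM in the control (0 to 8.75) and 112 FPKM in Rbfox2 OE (69.3 to 154), a log2 ratio of 4.65. The ratio of Timp1 to Timp3 levels was 0.0645 in the control and 0.982 in Rbfox2 OE, so the Timp1 level came close to that of Timp3. Timp1 shares its table locus with 7 other genes that together stood at 47.2 and 46.4 FPKM, and its host Syn1 stood at 0.153 and 0.496 FPKM.

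As deposited, the metalloproteinases differed in both directions, with Mmp14, Mmp2 and Mmp3 higher and Mmp15 lower in Rbfox2 OE, each with separate bounds. The separate bounds of Mmp15 did not hold after the rescaling described further on. Mmp14, the membrane-anchored collagenase that activates the Mmp2 precursor, stood at 4.06 FPKM in the control (2.59 to 5.53) and at 15.9 FPKM in Rbfox2 OE (10.8 to 21.1), a plain ratio of 3.93. Its log2 ratio of 1.74 was the highest of the 9 genes compared and exceeded that of 98.2% of all genes. The bounds were 5.22 FPKM apart and gave log2 ratios from 0.85 to 2.62. Mmp14 (ENSMUSG00000000957.9) lies on chromosome 14, 54431612 to 54445364, plus strand, and overlaps no other annotated gene.

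Mmp15, a membrane-anchored relative of Mmp14, was the gene of the set that was lower with separate bounds in the deposited values, though not after rescaling. It stood at 41.3 FPKM in the control (29.3 to 53.3) and at 20.4 FPKM in Rbfox2 OE (14.3 to 26.4), so the control level was 2.03 times that of Rbfox2 OE. With the added 1 FPKM its log2 ratio was -0.99, just short of 2-fold, and 10.3% of all genes compared had a lower ratio. The level of Mmp15 was 10.2 times that of Mmp14 in the control and 1.28 times in Rbfox2 OE, where the bounds of these genes overlapped. Mmp15 (ENSMUSG00000031790.7) lies on chromosome 8, 95352268 to 95375080, plus strand.

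Mmp2, the gelatinase that cuts basement membrane collagen and denatured collagen, stood at 8.75 FPKM in the control, with an upper bound of 11.5 FPKM, and at 16.9 FPKM in Rbfox2 OE, with a lower bound of 11.6 FPKM. Its log2 ratio was 0.88, under 2-fold, and the gap between the bounds was 0.0754 FPKM, so the bounds of the groups all but touched. Mmp2 (ENSMUSG00000031740.8) lies on chromosome 8, 92827291 to 92853420, plus strand. Mmp3, stromelysin, which cuts many matrix proteins and activates other MMP precursors, was close to 0 in the control at 0.0768 FPKM (0 to 0.167) and stood at 1.20 FPKM in Rbfox2 OE (0.629 to 1.76). The bounds did not overlap. The plain ratio was 15.6, but because the values are low the log2 ratio depends on the constant added: it was 1.03 with 1 FPKM, 2.87 with 0.1 FPKM and 0.29 with 5 FPKM. Mmp3 (ENSMUSG00000043613.7) lies on chromosome 9, 7445822 to 7455975, plus strand.

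For the 4 MMP genes of the set, the makeup of the transcripts differed more than their sum. The 4 MMP genes summed to 54.2 FPKM in the control and to 54.4 FPKM in Rbfox2 OE, or 60.6 FPKM there after the rescaling described further on. Mmp15 made up 76.2% of the sum of the 4 in the control and 37.4% in Rbfox2 OE. Mmp14 went from 7.49% to 29.3%, Mmp2 from 16.1% to 31.1% and Mmp3 from 0.142% to 2.20%. The 3 TIMPs of the set summed to 84.8 and 158 FPKM, and with Timp1 to 88.3 and 270 FPKM. The TIMP sum of the set was 1.57 times the MMP sum in the control and 2.91 times in Rbfox2 OE, and with Timp1 and all 23 MMP genes of the lists these ratios were 1.44 and 3.70. These are sums of transcript levels without an error of their own, and they say nothing of protein or activity.

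**Figure D2:**
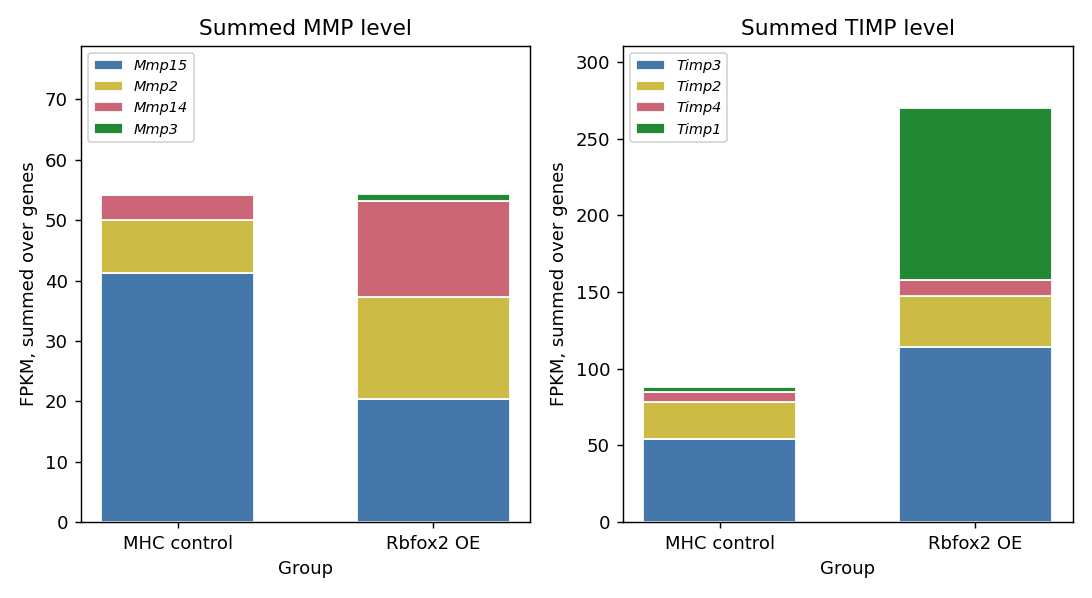
Summed FPKM of the 4 MMP genes (left) and of the 4 TIMP genes including Timp1 (right) in each group, stacked by gene on axes that start at 0. The MMP bars end at 54.2 and 54.4 FPKM with different makeup, and the TIMP bars end at 88.3 and 270 FPKM. The other 19 MMP genes of the lists are not in the left bars.

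The ADAM proteases showed no difference beyond the bounds. Adam10, which sheds Notch receptors and N-cadherin, stood at 9.93 FPKM in the control (6.78 to 13.1) and 12.0 FPKM in Rbfox2 OE (8.14 to 15.9), a log2 ratio of 0.25. Adam17, which sheds tumour necrosis factor and its receptors, stood at 9.22 FPKM (6.03 to 12.4) and 8.23 FPKM (4.96 to 11.5), a log2 ratio of -0.15. For Adam10 the pairs of bounds span log2 ratios from -0.62 to 1.12 and for Adam17 from -1.17 to 0.83, so a 2-fold difference in at least 1 direction is within the bounds of each. Adam17 overlaps exons of Iah1 on the opposite strand, which stood at 7.37 and 8.70 FPKM, and whether strand was used in counting is not stated. Adam10 (ENSMUSG00000054693.14) lies on chromosome 9, 70678997 to 70780229, plus strand, and Adam17 (ENSMUSG00000052593.15) on chromosome 12, 21323509 to 21373632, minus strand.

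Adamts1, which cuts versican and other proteoglycans, stood at 8.70 FPKM in the control (5.81 to 11.6) and 15.4 FPKM in Rbfox2 OE (10.6 to 20.3). The log2 ratio was 0.76 and the bounds overlapped between 10.6 and 11.6 FPKM. Adamts1 (ENSMUSG00000022893.14) lies on chromosome 16, 85793827 to 85803113, minus strand.

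Within a group, many neighbours in the order of levels could not be separated. In the control the order was Timp3, Mmp15, Timp2, Adam10, Adam17, Mmp2, Adamts1, Timp4, Mmp14 and Mmp3, and the bounds of adjacent genes were separate only between Timp2 and Adam10 and between Mmp14 and Mmp3. In Rbfox2 OE the order was Timp3, Timp2, Mmp15, Mmp2, Mmp14, Adamts1, Adam10, Timp4, Adam17 and Mmp3, and adjacent bounds were separate only below Timp3 and above Mmp3. By pooled value, Mmp14 was at rank 9 in the control and rank 5 in Rbfox2 OE, and Adam17 at rank 5 and rank 9.

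**Figure D3:**
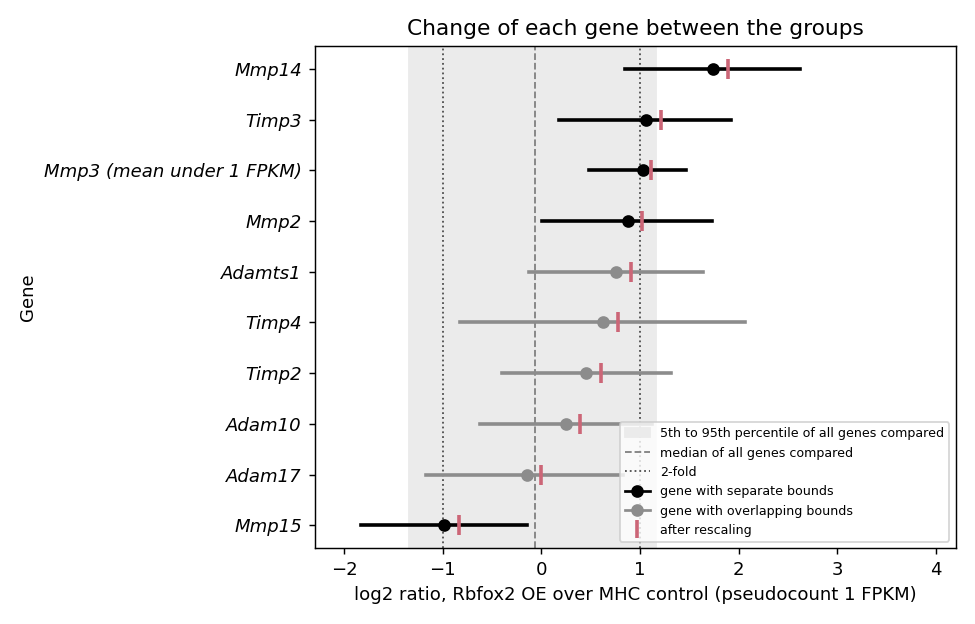
log2 ratio (Rbfox2 OE over MHC control) of each gene (points), with lines from the nearest to the farthest pair of the authors' bounds, black where the bounds are separate, and a red tick for the ratio after rescaling. The grey band is the 5th to 95th percentile of all genes compared (-1.35 to 1.17), and Mmp14 at 1.74 is the gene of the set outside it.

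The scaling of the groups bears on genes near a threshold. Rescaling the values without mitochondrial genes and the 10 most abundant genes raised the log2 values of Rbfox2 OE by 0.16, and the median over all genes shifted by 0.13, to 0.07. The genes past 2-fold, 815 higher and 1172 lower as deposited, then split into 1077 higher and 913 lower. Mmp2 passed 2-fold at 1.02 and the bounds of Adamts1 became separate. The bounds of Mmp15 met, at 29.3 FPKM for the lower control bound and 29.4 FPKM for the upper Rbfox2 OE bound, with a log2 ratio of -0.84. Separate bounds were then found for 4 of the 9 genes higher and 0 lower, beside 1034 higher and 825 lower of the 11812 genes that passed the minimum after rescaling. Adam17, whose bounds overlapped as deposited, went from -0.15 to -0.0064, and each of the 10 genes kept its sign.

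Further genes of the protease families were taken from lists of related genes. As background for the counts in these lists, 6.97% of all genes compared were at least 2-fold higher and 1172 of 11697 lower. With separate bounds as well, 5.27% were past 2-fold higher and 7.42% lower. Of 19 other MMP genes, 5 reached a mean of 1 FPKM, and 3 of these did so only through Rbfox2 OE, so they had to be higher there. Mmp12, macrophage elastase, stood at 0.171 and 3.43 FPKM, and Mmp19 at 0.482 and 2.88 FPKM, both with separate bounds. Of the other MMP genes, 5 were listed at 0 in both groups, among them Mmp1b and Mmp1a, the latter annotated as a polymorphic pseudogene. Of the 10 other ADAM genes listed, 6 were compared, 1 was at least 2-fold higher and 1 at least 2-fold lower. The leukocyte protease Adam8 stood at 0.267 and 5.13 FPKM, and Adam11, which lacks protease activity, at 6.32 and 1.76 FPKM. Of 18 other ADAMTS genes, 9 were compared, 2 were 2-fold higher and 1 lower. Adam8 and both of the 2-fold higher ADAMTS genes passed the minimum only through Rbfox2 OE and so had to be higher there. Adamts8 was one of these, at 0.389 and 2.88 FPKM, while Adamts7 stood at 6.70 FPKM in the control (3.69 to 9.71) and 1.74 FPKM in Rbfox2 OE (0.184 to 3.29).

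Activators and other inhibitors of these proteases included 16 genes, of which 14 were compared. Of these, 5 were at least 2-fold higher and 0 lower, with a median log2 ratio of 0.75. Of the 5, 4 also had separate bounds, where 5.27% of all genes compared were past 2-fold higher with separate bounds. Of the 14, 2 passed the minimum only through Rbfox2 OE and so had to be higher there. Lcn2, which binds the gelatinase Mmp9, stood at 14.7 FPKM in the control (9.73 to 19.6) and 94.5 FPKM in Rbfox2 OE (58.1 to 131). Thbs1, a matrix glycoprotein that binds MMPs, stood at 2.45 and 18.7 FPKM. The urokinase receptor gene Plaur stood at 2.67 and 12.2 FPKM, and the serine protease inhibitor Serpine2 at 3.38 and 8.70 FPKM. All 4 had separate bounds.

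Among genes that serve Adam10 and Adam17, the partners and the shed proteins were listed apart. Of 9 partner genes, the iRhoms and tetraspanins that carry these proteases to the cell surface among them, 7 were compared. None was past 2-fold in either direction. Separate bounds were found for 1, higher in Rbfox2 OE, against 6.67% of all genes compared. Of 24 proteins known to be shed, 17 were compared, 4 were 2-fold higher and 2 lower, with a median log2 ratio of 0.75. Of the 17, 1 passed the minimum only through Rbfox2 OE and so had to be higher. The receptors of tumour necrosis factor were both higher, Tnfrsf1a at 17.3 and 55.2 FPKM and Tnfrsf1b at 1.84 and 6.03 FPKM. The chemokine Cxcl16 stood at 3.84 and 12.1 FPKM, and the heparan sulfate proteoglycan Sdc4 at 7.28 and 20.9 FPKM. Cdh2, the N-cadherin of the intercalated disc, was lower at 114 FPKM in the control (82.0 to 146) and 51.0 FPKM in Rbfox2 OE (36.2 to 65.8), and the neuregulin receptor Erbb4 at 2.82 and 0.505 FPKM. Erbb4 passed the minimum only through the control and so had to be lower in Rbfox2 OE. All 6 had separate bounds.

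Of 36 matrix genes that include the substrates of these proteases, 35 were compared, with a median log2 ratio of 0.88. At least 2-fold higher were 16, against 6.97% of all genes compared, and 2 were lower, against 1172 of 11697. By separate bounds, 16 were higher and 1 was lower, against 6.67% and 9.33% of all genes compared. The matricellular gene Tnc stood at 0.108 and 5.23 FPKM, Spp1 at 0.0959 and 40.4 FPKM and Postn at 7.15 and 32.5 FPKM, and Tnc and Spp1 passed the minimum only through Rbfox2 OE. Col3a1, a fibrillar collagen, stood at 16.2 FPKM in the control (10.3 to 22.1) and 74.2 FPKM in Rbfox2 OE (51.3 to 97.1). Versican (Vcan), a substrate of Adamts1, stood at 1.49 and 8.19 FPKM, and fibronectin (Fn1) at 9.78 and 37.2 FPKM. These 6 were the ones with the largest ratios in the list, and all had separate bounds.

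**Figure D4:**
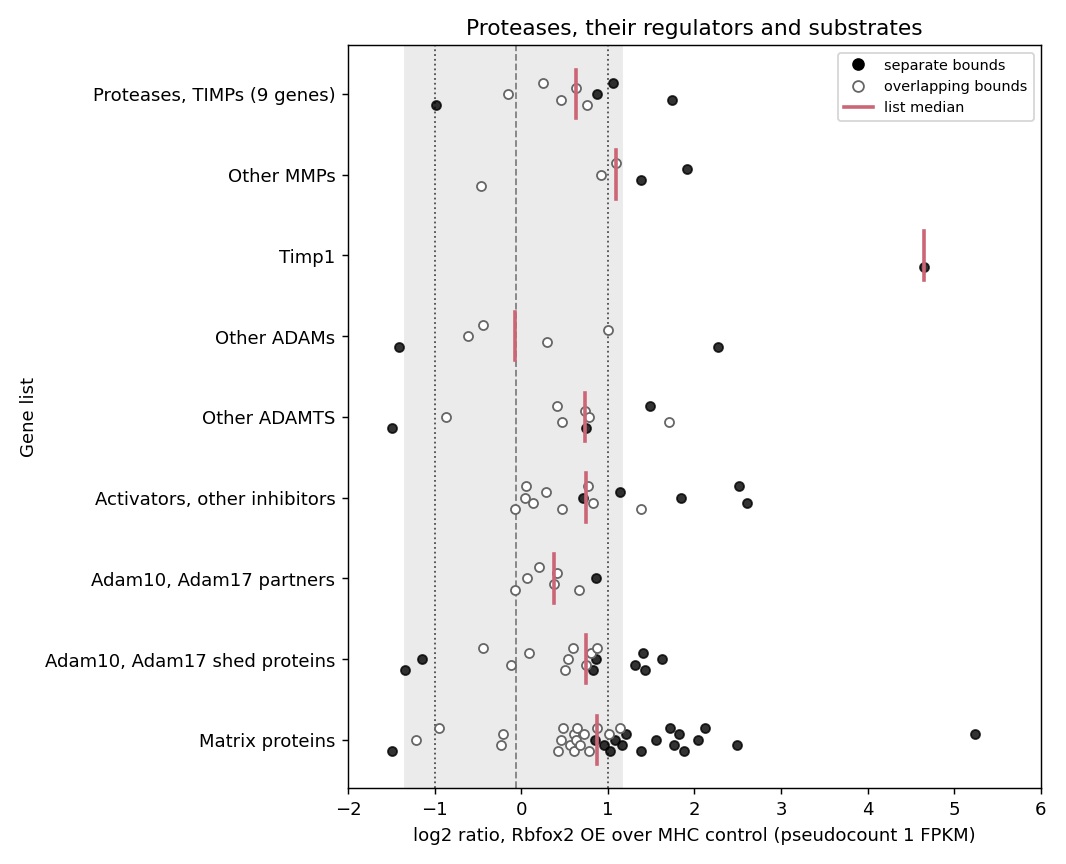
log2 ratio of each compared gene (points, filled where the authors' bounds are separate) by list, with the list median as a red line, the 5th to 95th percentile of all genes in grey, their median dashed and 2-fold dotted. The 35 matrix genes have a median of 0.88 and the 7 partners of ADAM10 and ADAM17 one of 0.38.

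Many of these matrix genes are known as products of fibroblasts, so the markers were examined in full. The cardiomyocyte markers were abundant in both groups, with Myl2 at 24688 and 18007 FPKM, Tnnt2 at 10609 and 6917 FPKM and Tnni3 at 7811 and 3866 FPKM. Myh6 and Mb were listed at 0 in both groups with the status HIDATA, which Cuffdiff gives to loci with too many fragments to estimate. The other 10 cardiomyocyte markers summed to 62635 and 39376 FPKM, with log2 ratios from -2.42 to 0.60. None of these 10 was at least 2-fold higher and 4 were lower. The background for this and the other marker lists is 6.97% of all genes compared higher and 1172 of 11697 lower.

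The 10 fibroblast markers, of which 6 are also in the matrix list, summed to 234 and 551 FPKM. Of these 7 were at least 2-fold higher and 0 lower, with log2 ratios from 0.36 to 2.13, none was listed at 0, and Dcn was the most abundant at 147 and 301 FPKM. The 10 endothelial markers summed to 495 and 765 FPKM, with log2 ratios from 0.03 to 1.30 and 3 of 10 at least 2-fold higher. The 10 macrophage and leukocyte markers summed to 111 and 387 FPKM, and 8 of the 9 compared were at least 2-fold higher. Of the 9, 1 passed the minimum only through Rbfox2 OE. The 10 markers of smooth muscle and pericytes summed to 213 and 361 FPKM, with 3 at least 2-fold higher and 1 lower, Abcc9, at 58.5 and 16.2 FPKM. The 6 red blood cell markers summed to 56.6 and 295 FPKM, with 4 of the 5 compared at least 2-fold higher, and 2 of the 5 passed the minimum only through Rbfox2 OE and so had to be higher.

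**Figure D5:**
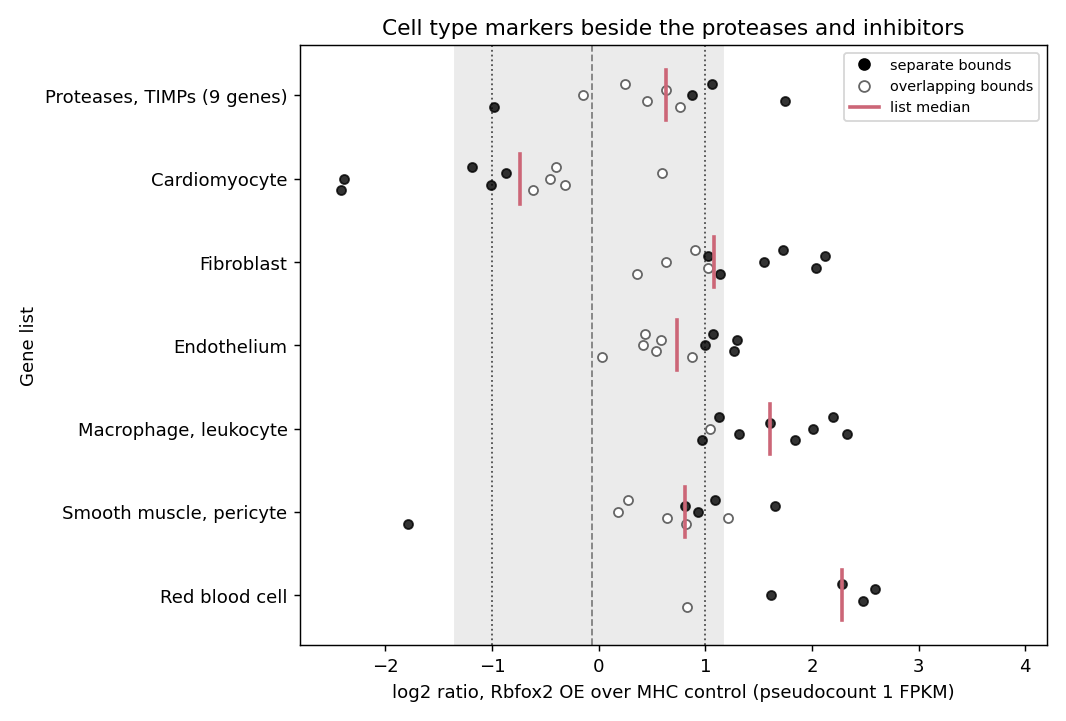
log2 ratio of each compared marker gene (points, filled where the authors' bounds are separate) by cell type, below the 9 compared proteases and inhibitors, with list medians in red. The cardiomyocyte median is -0.74, the fibroblast median 1.08 and the macrophage and leukocyte median 1.60.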

How the data were processed

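The deposited table is a Cuffdiff gene-level table in FPKM, per the file headers, with 1 value, a lower and an upper bound and a status for each group. Each value pools the 2 libraries of its group by the authors, and 0 columns of single libraries went unused. The submitters' processing notes name bcl2fastq 2.17.1.14, Trimmomatic, STAR 2.4.2a, Picard 1.119, HTSeq, DESeq2 and Cuffdiff 2.2.1 with GRCm38 and mm10. Annotation, normalization mode and whether counting used strand are not given in the sources used here. The library kit is stranded, per the labels.

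Where several rows carried 1 gene name (110 names) they were added up. Genes averaging 1 FPKM or more over the groups were compared on log2 values after 1 FPKM was added to each, and differences of low genes are thereby understated. Since FPKM hides the number of fragments, no counting interval or detection floor is given. No p-values were computed. A value of 0 can be a failed estimate. Coordinates come from GENCODE M21, in which 99.2% of the table's identifiers were found, and promoters from RefSeq. The version numbers of some identifiers differ between the table and M21, so gene ends may differ from those used by the authors.

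All 10 genes of the set are described. From each related list at most 6 genes past 2-fold with separate bounds are named, and from each marker list at most 3, the most abundant, besides those listed at 0, of which 1 is not reported here. Timp1 and the synapsins are named whatever their values. Cep295nl, Iah1, Abcc9, Mmp1a and Mmp1b are named for their overlap with a gene of the set, their direction or their value of 0, after their values were seen. The genes and lists were chosen with earlier results of these data known. Alternatives covered the pseudocount, the fold, the minimum level, the status and 2 rescalings. The calculations were tested on simulated data. Python 3.11.15, pandas 2.3.3 and matplotlib 3.10.9 were used.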

Additional observations from a re-analysis of the deposited data

How the results depend on the processing

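No paired analysis was possible because the libraries of a group are merged into a single FPKM, and for the same reason no library could be left out in turn. The number of genes of the set past 2-fold was 2 of 9 and became 6 (5 higher, 1 lower) at a 1.5-fold threshold and 0 at a 4-fold threshold. Over all genes the count of 1987 became 4520 and 290 at those thresholds and 863 with a pseudocount of 5 FPKM, which shrinks the ratios of low genes. A pseudocount of 0.1 FPKM brought Mmp15 past 2-fold lower, at -1.02. Of the 40 values of single genes under other settings, 38 lay within the range of the authors' bounds and 2, both of Mmp3, outside it. That range is wide beside most of the shifts, so this is a weak check. The rescaling still changed how Mmp2, Mmp15 and Adamts1 were counted. Counting Mmp3, a setting added after seeing the data, gave 3 of 10 genes past 2-fold and 5 with separate bounds. Without a minimum, 2058 and 2255 of all 48316 genes were so counted. Only 11697 of these reach a mean of 1 FPKM, and genes at or near 0 can hardly be counted by either measure. Mmp3 was counted through its Rbfox2 OE value alone, so the counts without a minimum are no fair background for the set. Spread between libraries and depth are unknown and limit each result here.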
